A study of Nasonia vitripennis with 70 samples.

Results

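The genes described here are 100 genes of the parasitoid wasp Nasonia vitripennis whose transcripts stood higher in heads of diploid males than in heads of haploid males at both generations sampled. They were taken from 14613 genes with a deposited TPM value (a share of the library corrected for transcript length). A total of 8078 of these carry a symbol of the LOC form and averaged at least 5 TPM over the male heads. For each of those candidates the log2 ratio of mean TPM, diploid over haploid with 0.5 added to each mean, was taken at F5 and at F15, and the 100 genes with the highest smaller ratio were kept. The members were thus selected on the TPM values of the male heads, and their values there are given as a description and carry no support.

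All libraries come from the WGDL line, a neo-polyploid line that goes back to genome doubling induced with colchicine. Heads and abdomens were taken 1 day after emergence for poly-A RNA, and the 70 libraries fall into 16 groups. Diploid males of F5 (n = 5 heads and 5 abdomens) were set against haploid males of F5 (n = 5 and 5), and diploid males of F15 (n = 4 and 4) against haploid males of F15 (n = 4 and 4). Triploid females of F2 (n = 5 heads and 5 abdomens) were set against diploid females of F2 (n = 4 and 4), and triploid females of F14 (n = 4 and 4) against diploid females of F14 (n = 4 and 4). Every animal, the diploid females and haploid males included, belongs to this 1 line, and no library of an untreated line was analysed here. The labels do not state how many animals a library holds, so p-values measure the spread between libraries, which may be partly technical.

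In Nasonia, as in other Hymenoptera, fertilised eggs normally give diploid females and unfertilised eggs give haploid males. A diploid male thus carries the female chromosome number in a male body, and a triploid female carries an added set. Relative expression values such as TPM do not report how much RNA an animal or a cell holds, only how that RNA is divided among genes. In tissue libraries of this kind fewer cells of a type and less RNA per cell cannot be told apart.

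Libraries held between 12163580 and 25061605 counts. Triploid heads of F14 had 12163580 to 16076484 counts, against 16339050 to 23067748 counts in diploid heads of F14. The 3 eye genes Lop1 (an opsin), HisCl1 and white summed to at least 1018 TPM in every head library and to at most 2.94 TPM in abdomens other than C46. Library C46, labelled as a diploid male abdomen of F5, had an eye sum of 3439 TPM and 8.45% of its TPM in the cuticle protein gene CPR48, which lay at or near 0 in the other abdomens. C46 was kept out of every abdomen value below unless it is named.

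Of the 100 members, 98 are annotated as protein coding, 1 (LOC103316773) as a long non-coding RNA and 1 (LOC116416421) as a snoRNA, and 98.1% of the candidates are protein coding. None carries a synonym in the RefSeq gene table used for names, so no function is assigned to any of them here. Only 2 pairs are direct neighbours on a chromosome, LOC107981339 with LOC100123614 and LOC100114742 with LOC100679718. RSEM divides reads among similar sequences, so the level of a member with a close paralogue is uncertain.

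The smaller log2 ratio ranged from 1.27 at the top of the list to 0.61 at its end. LOC100119619 and LOC100122310 closed the list at 0.612 and 0.611, and LOC100123358 and LOC100119055 stood just outside it at 0.610 each. Over the members the median ratio was 0.92 at F5 and 0.75 at F15, against 0.14 and 0.18 over all candidates. The boundary between members and non-members is thus narrow, and 7 candidates in all exceeded a log2 ratio of 1 at both generations.

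The higher mean of the F5 diploid heads came for most members from 2 of the 5 libraries. C43 and C44 were the highest 2 diploid heads for 84 of the 100 members. The median TPM over the members was 52.6 in C43 and 60.5 in C44, and 12.1, 21.5 and 11.4 in C41, C42 and C45, against 15.1 to 20.2 in the 5 haploid heads. The other 3 diploid heads thus lay around the haploid heads or below them. Without C43 and C44, 32 of the 100 members kept a ratio above 0 at F5, with a median of −0.25 (−0.10 over the candidates).

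At F15 the low end of the haploid heads and the high diploid heads C92 and C94 each carried part of the ratio. The median TPM over the members was 30.2, 45.5, 20.4 and 41.3 in diploid heads C91, C92, C93 and C94, against 24.4, 5.10, 30.4 and 26.8 in haploid heads C81, C82, C83 and C84. Library C82 was the lowest haploid head for 81 members, and C92 was the highest diploid head for 63. Without C82 all 100 members stayed above 0, with a median of 0.48. Without C92 and C94, 83 stayed above 0, with a median of 0.26, against 0.17 over the candidates. The members varied more between libraries of 1 group than candidates did: their median SD on the log2(TPM + 0.5) scale was 1.297 in F5 diploid heads (0.45 over candidates), 0.36 in F5 haploid heads (0.31), 0.74 in F15 diploid heads (0.39) and 1.13 in F15 haploid heads (0.50).

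**Figure D1:**
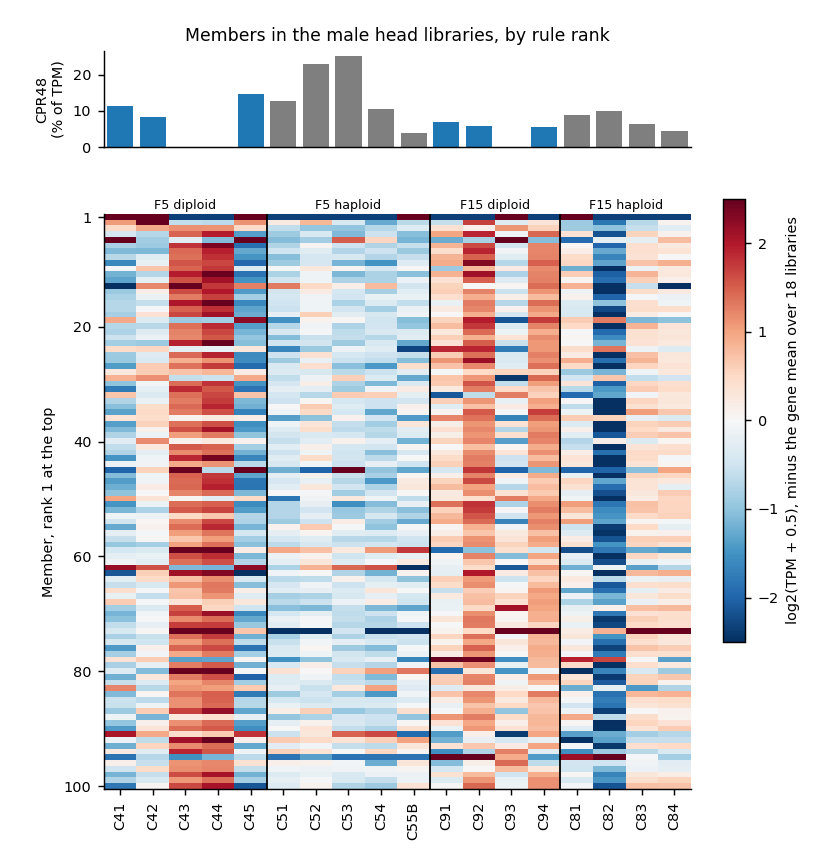
Heat map of the 100 members (rows, by rank) in the 18 male head libraries (columns, diploid left of haploid at each generation), coloured by log2(TPM + 0.5) minus the gene's mean over the 18 libraries, with the share of TPM in CPR48 above each column. C43 and C44 are the highest 2 of the 5 F5 diploid heads for 84 members, and C82 is the lowest F15 haploid head for 81.

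A head marker moved with C43 and C44 at F5 but not alike at F15. CPR48, a gene of the chitin-binding cuticle protein family, took 0.11% of TPM in each of C43 and C44 and 8.39 to 14.6% in the other 3 F5 diploid heads, against 4.07 to 25.1% in the F5 haploid heads. At F15 it took 0.11% in diploid head C93 and 5.71 to 6.93% in the other 3, against 4.54 to 9.87% in the haploid heads. C93, unlike C43 and C44, had the lowest member median of its group and was lowest for 59 members. The 35 cuticle genes counted together summed to 2451 to 148702 TPM in F5 diploid heads, against 42782 to 253550 TPM in F5 haploid heads. Or1, the co-receptor of the odorant receptors of the antenna, stood at 7.97 to 101.2 TPM in F5 diploid heads, against 0.97 to 8.49 TPM in F5 haploid heads, and its part and that of CPR48 in the members' levels was not tested. Taking the rule again without 1 library kept between 50 (without C82) and 93 (without C51) of the members, 56 without C92 and 59 without C44. With group medians in place of means 28 were taken again.

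Among the male heads, 3 members did not overlap between diploid and haploid libraries at F5 and 3 did not at F15, beside 0.978% and 1.39% of candidates. edgeR called 2 members higher in diploid heads at F5, where 0.322% of all genes tested were called higher, and 2 at F15, where 0.0255% were. These contrasts chose the members, so nothing is read from the counts. The same 2 genes, LOC100678896 and LOC100680350, made up both.

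LOC100680350, rank 28, was among the steadier members. In male heads of F5 it stood at 225, 287, 308, 336 and 214 TPM in diploids, against 148, 143, 118, 129 and 153 TPM in haploids. At F15 it stood at 181, 264, 272 and 281 TPM in diploids, against 98.97, 83.5, 173 and 226 TPM in haploids. The F5 groups were separate, while 1 F15 haploid head exceeded the lowest F15 diploid head.

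LOC100680350 also rose in diploid male abdomens. These had no part in making it a member, but it is named here because it was called there. At F5 it stood at 345, 123, 148 and 198 TPM in diploid abdomens, against 84.6, 67.97, 83.4, 84.3 and 76.2 TPM in haploid abdomens (log2 change 1.53, SE 0.20, edgeR adjusted p = 0.000339). At F15 it stood at 253, 196, 277 and 222 TPM in diploid abdomens, against 118, 77.3, 111 and 133 TPM in haploid abdomens (log2 change 1.23, SE 0.22, edgeR adjusted p = 0.00014). The libraries of the groups did not overlap at either generation, and a lack of overlap was a condition of naming the gene. In a fit of the 2 compared F5 groups alone, where no gene at all was called, the log2 change was 1.59 with an adjusted p of 0.39.

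Between triploid and diploid females LOC100680350 was not called. In heads its log2 change was −0.24 at F2 (SE 0.11, edgeR adjusted p = 0.12) and 0.12 at F14 (SE 0.12, adjusted p = 0.526). In F14 heads it stood at 375, 368, 381 and 359 TPM in triploids, against 321, 285, 313 and 313 TPM in diploids. In abdomens its log2 change was −0.45 at F2 (SE 0.20, edgeR adjusted p = 0.14) and 0.45 at F14 (SE 0.21, adjusted p = 0.111), and these changes differed from each other (0.90, SE 0.30, adjusted p = 0.0177). Diploid female abdomens lay between 60.5 and 73.6 TPM, below every diploid male abdomen.

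LOC100678896, rank 3, was a head transcript of low level. In male heads of F5 it stood at 8.75, 12.3, 14.3, 14.1 and 8.81 TPM in diploids, against 3.84, 2.92, 2.87, 3.58 and 4.84 TPM in haploids. At F15 it stood at 8.15, 6.77, 13.9 and 9.52 TPM in diploids, against 3.13, 2.76, 4.0 and 5.01 TPM in haploids. All diploid heads exceeded all haploid heads of their generation. It lay between 8.97 and 24.8 TPM in all female heads, and its log2 change in triploid heads was 0.01 at F2 (SE 0.12, edgeR adjusted p = 0.984) and 0.28 at F14 (SE 0.13, adjusted p = 0.136).

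In abdomens LOC100678896 was low. It stood at 0.69 to 2.03 TPM in diploid male abdomens of F5, against 0.73 to 0.99 TPM in haploid ones, and at 1.08 to 2.1 TPM in diploid ones against 1.06 to 1.71 TPM in haploid ones at F15, with no call (edgeR adjusted p = 0.637 and 0.802). Triploid female abdomens of F14 had 1.18, 0.86, 0.41 and 3.58 TPM, against 0.21, 0.31, 0.38 and 0.07 TPM in diploid ones (log2 change 2.97, SE 0.79, edgeR adjusted p = 0.00636). Library C46 had 8.33 TPM, a value inside the range of the heads.

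**Figure D2:**
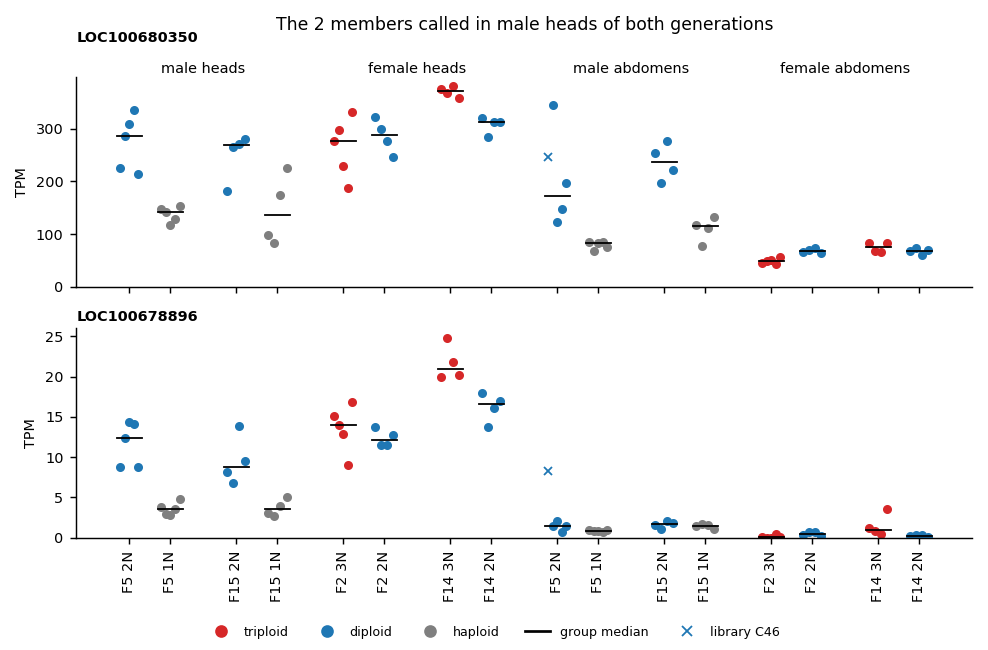
TPM of LOC100680350 (top) and LOC100678896 (bottom) in each library, by tissue, sex, generation and ploidy, with a bar at the group median; C46 is drawn as a cross and left out of its median. LOC100680350 lies higher in diploid than in haploid males in both tissues. In females it was not called, though triploid libraries lie below diploid ones in F2 abdomens and above them in F14 heads. LOC100678896 is low in all abdomens but C46.

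The other members of the top 12 mostly followed C43, C44 and C82. LOC100121729, rank 4, stood at 26.5 and 37.9 TPM in C43 and C44 and at 3.28 to 6.86 TPM in the other F5 diploid heads, against 4.06 to 7.02 TPM in the haploid heads. LOC100121831, rank 11, stood at 30.96 and 44.3 TPM in C43 and C44 and at 1.74 to 4.34 TPM in the other diploid heads, against 3.17 to 6.98 TPM in the haploid heads. Ranks 6 to 10 and 12 (LOC100116528, LOC100680122, LOC100114742, LOC100118015, LOC100114962 and LOC100120231) also had C43 and C44 as their highest F5 diploid heads. In none of these 6 did the other 3 diploid heads all exceed the haploid heads, and for LOC100116528 and LOC100680122 all 3 lay below every haploid head. LOC100116528 stood at 3.51, 3.25 and 1.42 TPM in C41, C42 and C45, against 3.68 to 6.91 TPM in the haploid heads.

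A set of 16 members went the other way or had no such order, and 3 of them are among the top 5. LOC100119682, rank 2, was lowest in exactly C43 and C44: F5 diploid heads stood at 69.1, 198, 21.4, 20.8 and 71.9 TPM, against 38.7, 58.96, 25.3, 13.4 and 20.6 TPM in haploid heads. At F15 it was at 21.6, 108, 26.3 and 41.1 TPM in diploid heads, against 17.2, 8.98, 20.2 and 34.9 TPM in haploid heads. LOC107981339, rank 62, behaved likewise, with 2889, 1944, 295, 284 and 3009 TPM in F5 diploid heads, against 366, 1166, 1723, 1911 and 95.6 TPM in haploid heads.

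LOC116416421, the snoRNA and rank 1, is listed at 0 in many libraries. It stood at 61.3, 122, 0, 0 and 65.4 TPM in F5 diploid heads, and in the haploid heads it is listed at 0 in 4 of 5 and at 45.7 TPM in the fifth. At F15 it is at 84.6 TPM in 1 diploid head and 33.9 TPM in 1 haploid head and at 0 in the other three on each side. It had too few counts to be tested, and a poly-A library is not made to measure such RNAs. LOC100678481, rank 5, was at 38.99, 3.23, 5.16, 2.73 and 45.9 TPM in F5 diploid heads, against 2.74, 3.22, 18.9, 9.37 and 2.56 TPM in haploid heads, and at F15 1 diploid library (C93, 45.8 TPM) held most of it.

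Group by group, the members stood higher in heads than in abdomens. The rule asked for at least 5 TPM over male heads and set no level in abdomens. The levels in male heads were thus partly fixed by the rule. The median over members of the group mean TPM was 33.2 in F5 diploid male heads, 17.0 in F5 haploid male heads, 36.2 in F15 diploid male heads and 22.2 in F15 haploid male heads. In female heads it was 19.2 in F2 triploids, 29.96 in F2 diploids, 53.7 in F14 triploids and 52.7 in F14 diploids. Male abdomens lay between 4.48 and 8.20 and female abdomens between 2.19 and 4.71. LOC100114168, singled out after its values were seen, had the highest mean of all members in each of the 16 groups, from 646 TPM in F14 diploid female abdomens to 7319 TPM in F2 diploid female heads.

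**Figure D3:**
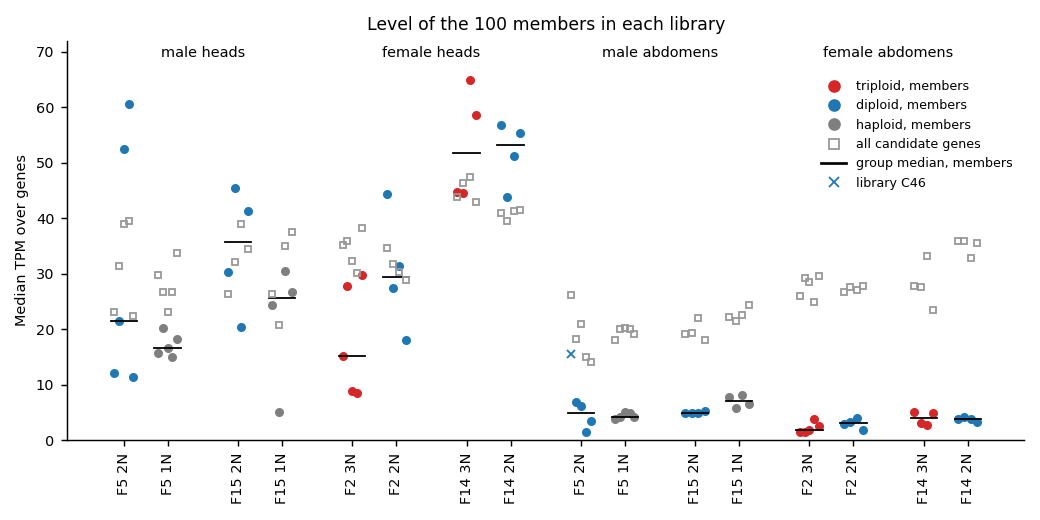
Median TPM over the 100 members in each library (filled points; bar, group median) beside the median over all 8078 candidates (open squares). The ratio of the members' median to the candidates' lies between 0.246 and 1.53 in heads, with C82, C33 and C34 lowest, and between 0.0523 and 0.375 in abdomens other than C46, which has a member median of 15.6 TPM.

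The comparison of ploidy in male abdomens asks whether the members also differ where they were not chosen. At F5, 1 of the 99 members tested was higher in diploid abdomens (LOC100680350, above) and 0 were lower (3 at an unadjusted p under 0.05, 0 by DESeq2), where 0.268% of all genes tested were called higher and 0.0488% lower. The median log2 change was 0.22 over the members and −0.04 over all genes, and 64 members were above 0. Without C47 the members' median was −0.04 and without C49 it was 0.44, and C49 was the lowest diploid abdomen for 70 members. At a member median of 1.5 TPM, C49 compares with 3.45 to 6.85 TPM in the other diploid abdomens and 3.92 to 5.08 TPM in the haploid ones.

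At F15, 2 of 99 members were higher in diploid abdomens and 5 were lower, where 7.44% of all genes were called higher and 15% lower. The median log2 change was −0.24 over the members and −0.13 over all genes. LOC100123547 rose the most: diploid abdomens stood at 357, 317, 337 and 271 TPM, against 49.96, 16.1, 57.95 and 71.2 TPM in haploid abdomens (log2 change 2.89, SE 0.28, edgeR adjusted p = 9.6e-08). No haploid library came near a diploid one. At F5 the same gene had 203, 120, 266 and 169 TPM in diploid abdomens, against 89.3, 117, 105, 128 and 127 TPM in haploid abdomens (log2 change 0.96, SE 0.25, adjusted p = 0.0799), and the change at F15 exceeded that at F5 (difference 1.93, SE 0.37, edgeR adjusted p = 0.00293). The difference between generations was called for 1 other member in male abdomens, LOC100677857 (−1.60, SE 0.49, edgeR adjusted p = 0.0464). These 2 make 1 higher and 1 lower at F15 of 99 members, where 1.39% of all genes were called higher and 4.55% lower. Between diploid female heads and abdomens the log2 difference of LOC100123547 was −0.01 (SE 0.12, edgeR adjusted p = 0.911).

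LOC100678481 fell in F15 diploid male abdomens to 0.97, 0, 2.12 and 0.38 TPM, against 21.1, 29.1, 19.4 and 4.56 TPM in haploid ones (log2 change −4.28, SE 1.17, edgeR adjusted p = 0.00891). LOC100123371 fell to 0.70, 1.03, 1.29 and 1.04 TPM, against 7.70, 4.32, 6.04 and 3.35 TPM (log2 change −2.27, SE 0.70, edgeR adjusted p = 0.0178). In F5 heads LOC100123371 had 216 and 213 TPM in the diploid heads C43 and C44 and 15.3, 8.81 and 18.6 TPM in C41, C42 and C45, against 19.3 to 49.7 TPM in the haploid heads. The diploid heads other than C43 and C44 thus lay below every haploid head. The call of LOC100123371 ends without C86 (adjusted p = 0.0607) or without C96 (adjusted p = 0.059). The other three that fell, named because they complete the count, are LOC103316308, LOC100118107 and LOC100117351 (log2 change −1.61, −1.63 and −6.39). The count of 5 was 2 without C86 and 3 without C87. Those 2 haploid abdomens had the highest sums of the 3 muscle genes, at 5383 and 7130 TPM, and the F15 groups ranged from 1341 to 1706 TPM in diploid abdomens, against 1400 to 7130 TPM in haploid ones. The cuticle genes summed to 4140 to 4968 TPM in F15 diploid abdomens, against 3750 to 8136 TPM in haploid ones, and the 4 fat body genes to 899 to 1269 TPM in diploid abdomens, against 1136 to 2136 TPM in haploid ones. The part of these in the members' changes was not tested.

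The females show the same genes with an added set. In F2 heads, 26 of 99 members were lower in triploids and 1 was higher, where 10.3% of all genes tested were called lower and 8.28% higher. The median log2 change was −1.05 over the members and 0.03 over all genes, and 90 members were below 0. In F14 heads, 5 members were lower and 0 higher (11.5% of all genes lower, 9.46% higher), with a median of −0.06 against 0.10 over all genes. At an unadjusted p under 0.05 edgeR called 2 members higher in F14 triploid heads, and DESeq2 called 0 at an adjusted p below 0.05.

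The F2 count changed with every head left out. C33 and C34 had the lowest member medians of the triploid heads, at 8.93 and 8.54 TPM beside 15.2, 27.9 and 29.8 TPM in C31, C32 and C35. Of the diploid heads C21 (44.3 TPM) was highest for 83 members and C25 (18.04 TPM) lowest for 80, with C22 and C23 at 27.5 and 31.3 TPM. Without C21 the count of lower members was 11, without C33 it was 11, without C22 17, without C23 14, without C31 13 and without C34 14. It was 39 without C32, 41 without C35 and 36 without C25. Leaving out C33 and C34 together, a choice made after seeing the data, gave 11 lower members and a median of −0.74.

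Other markers moved between these heads. CPR48 took 0.0124 to 0.0245% of TPM in F2 triploid heads, against 1.22 to 1.85% in F2 diploid heads. The 214 odorant receptor genes summed to 43.6 to 128 TPM in F2 triploid heads, against 280 to 441 TPM in F2 diploid heads, and 41 and 12 of them were at 0 in every library of those groups. The 3 muscle genes Tm1, Tm2 and Zasp66 summed to 458 to 650 TPM in F2 triploid heads, against 2174 to 2775 TPM in F2 diploid heads. At F14 CPR48 took 0.0005 to 0.144% in triploid heads, against 0.0856 to 0.264% in diploid heads, the odorant receptor genes summed to 100.99 to 279.6 TPM in triploid heads, against 1067 to 1111 TPM in diploid heads, and the muscle genes to 752 to 1858 TPM in triploid heads, against 989 to 1634 TPM in diploid heads. The neuropeptide genes Pdf and ACP summed to 1459 to 1880 TPM in F2 triploid heads, against 618 to 845 TPM in F2 diploid heads, and to 1046 to 2038 TPM in F14 triploid heads, against 599 to 623 TPM in F14 diploid heads. The eye genes summed to 3097 to 5614 TPM in F2 triploid heads, against 5135 to 9937 TPM in F2 diploid heads, and to 1807 to 4692 TPM in F14 triploid heads, against 4887 to 5584 TPM in F14 diploid heads. The fat body genes summed to 224 to 379 TPM in F2 triploid heads, against 138 to 213 TPM in F2 diploid heads, and to 343 to 834 TPM in F14 triploid heads, against 413 to 515 TPM in F14 diploid heads. The part of these genes in the members' changes was not tested.

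LOC100119682 had one of the clearest differences in F2 heads. Triploid heads stood at 20.6, 21.9, 17.96, 16.4 and 22.7 TPM, against 212, 242, 169 and 172 TPM in diploid heads (log2 change −3.45, SE 0.52, edgeR adjusted p = 2.97e-05). The groups lay far apart and each was tight. In F14 heads the gene stood at 31.3, 31.6, 27.9 and 44.1 TPM in triploids, against 28.1, 30.4, 23.9 and 24.4 TPM in diploids (log2 change 0.21, SE 0.52, adjusted p = 0.835). The change at F14 differed from that at F2 by 3.65 (SE 0.74, edgeR adjusted p = 0.00284), and the F14 diploid heads stood near the F2 triploid ones.

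LOC107981339 fell to 91.04, 138, 122, 146 and 73.7 TPM in F2 triploid heads, against 947, 1082, 1527 and 1393 TPM in diploid heads (log2 change −3.54, SE 0.81, edgeR adjusted p = 0.00276). In F14 heads it was at 279, 107, 644 and 603 TPM in triploids, against 282, 377, 214 and 120 TPM in diploids, where the groups overlap (log2 change 0.57, SE 0.80, adjusted p = 0.68). LOC100120906 fell to 41.9, 108, 57.8, 123 and 59.9 TPM in F2 triploid heads, against 715, 655, 703 and 624.8 TPM in diploid heads (log2 change −3.19, SE 0.67, edgeR adjusted p = 0.00138). These 3 genes belong to the 16 members for which C43 and C44 were not the highest F5 diploid male heads. Of the 15 of those tested, 8 were lower in F2 triploid heads, beside 18 of the other 84. In this contrast 10.3% of all genes tested were called lower. The split was drawn from the F5 male heads that also chose the members, so nothing is read from these counts.

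LOC100115155 was the 1 member that rose in F2 triploid heads, to 11.6, 8.14, 10.5, 7.78 and 9.66 TPM, against 2.12, 2.09, 3.99 and 2.73 TPM in diploid heads (log2 change 1.68, SE 0.46, edgeR adjusted p = 0.0107). In F14 heads it was at 3.55 to 8.57 TPM in triploids, against 3.52 to 4.43 TPM in diploids, with no call (adjusted p = 0.763). LOC100678481, a gene that fell in F15 diploid male abdomens, stood at 149, 74.6, 197, 137 and 63.3 TPM in F2 triploid heads, against 13.4, 15.8, 28.5 and 48.6 TPM in diploid heads. Its groups did not overlap, and its log2 change of 2.11 (SE 0.89, edgeR adjusted p = 0.0938) was not called.

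The 5 members that fell in F14 triploid heads are LOC100115264, LOC100123985, LOC103317947, LOC100123547 and LOC100121983, and the last pair is named because it completes the count. LOC100115264 fell to 13.6, 8.39, 33.2 and 32.97 TPM in F14 triploid heads, against 136, 147, 142 and 146 TPM in diploid heads (log2 change −2.84, SE 0.40, edgeR adjusted p = 1.54e-05). It also fell in F2 heads, to 21.4, 26.6, 26.5, 34.9 and 22.9 TPM in triploids, against 74.2, 62.4, 55.5 and 52.9 TPM in diploids (log2 change −1.29, SE 0.36, edgeR adjusted p = 0.0115). At both generations every triploid head lay below every diploid head.

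LOC103317947 is the other member that fell at both generations. It stood at 24.8, 30.7, 32.7, 46.2 and 31.3 TPM in F2 triploid heads, against 129, 128, 103 and 115 TPM in diploid heads (log2 change −1.93, SE 0.32, edgeR adjusted p = 8.73e-05). At F14 it stood at 9.95, 10.4, 10.0 and 12.8 TPM in triploid heads, against 44, 39.95, 40 and 34.3 TPM in diploid heads (log2 change −2.01, SE 0.35, edgeR adjusted p = 0.000152). The changes at the 2 generations were of like size, with a difference of −0.08 (SE 0.46, adjusted p = 0.947). LOC100123985 fell to 7.04, 3.98, 7.33 and 6.24 TPM in F14 triploid heads, against 21.6, 35.9, 19.8 and 34.3 TPM in diploid heads (log2 change −2.33, SE 0.45, edgeR adjusted p = 0.000526), and at F2 its log2 change was −0.42 (adjusted p = 0.478).

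The 2 members lower at both generations are 7.69% of the 26 lower at F2 and 40% of the 5 lower at F14. The same overlap over all genes is not given here for heads, so nothing is read from these shares. The difference between the generations itself was called for 2 of 99 members, LOC100119682 and LOC107981339, both with a higher change at F14 (2.31% of all genes higher, 3.94% lower). No member had a called lower change at F14 than at F2, though 4 had an unadjusted p under 0.05 by edgeR and DESeq2 called 2.

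**Figure D4:**
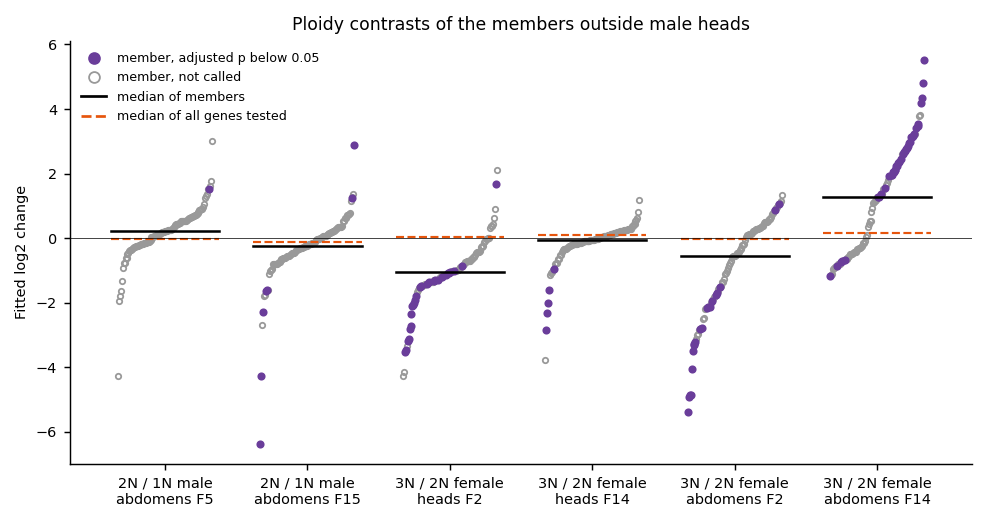
Fitted log2 change of each member tested (points, sorted within a contrast; filled, adjusted p below 0.05) in the 6 ploidy contrasts outside male heads, with the median of the members (solid bar) and of all genes tested (dashed bar). Members lie mostly below 0 in triploid heads of F2 (26 called lower, where 10.3% of all genes were). In triploid abdomens of F14 they reach far above 0 (34 called higher and 5 lower, where 23.1% and 3.57% of all genes were). The F14 direction did not hold on log2 TPM, where the share of all genes called is not given. The other contrasts hold few calls or calls on the lower side.

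In female abdomens more members were called lower than higher at F2 and more were called higher than lower at F14 by the count test. The F14 direction did not hold on the log2 TPM scale, whose counts are given below without a share of all genes. In F2 triploid abdomens 18 of 99 were lower and 2 higher, where 11% of all genes were called lower and 1.49% higher, and the median log2 change was −0.55 over the members and −0.02 over all genes. In F14 triploid abdomens 34 were higher and 5 lower, where 23.1% of all genes were called higher and 3.57% lower, and the median was 1.29 over the members and 0.17 over all genes. With the 2 compared F14 groups fitted alone, 4 members were higher and 0 lower, and the share of all genes called in that fit is not given here. Of the 18 lower at F2, 15 were among the 34 higher at F14, which is 83.3% of the first list and 44.1% of the second. Over all genes tested, 940 of the 1346 lower at F2 were among the 2842 higher at F14, which is 69.8% of the first list and 33.1% of the second. The difference between the generations was called higher at F14 for 47 members and lower for 13 (28.1% and 11.6% of all genes).

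Levels behind these counts were low: 43 members averaged under 1 TPM in F2 triploid abdomens and 40 in F2 diploid ones, and 30 in F14 triploid and 40 in F14 diploid ones. On the log2 TPM scale, tested with limma, 13 members were higher and 22 lower in F14 triploid abdomens, with a median of 0.33, and 3 were lower at F2. The median of all genes at F14 was −0.17 on that scale. The shares of all genes called on that scale are not given here, so these counts are not read as a trait of the members. That test differs from the count test in its unit, scaling, filter and model at once, and their parts were not tested apart.

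Single libraries moved the F14 count as well. C69 was an outlying triploid abdomen, in which the members summed to 31471 TPM beside 3334 to 4253 TPM in the other 3 triploid abdomens and 2926 to 3548 TPM in the diploid ones. Its 3 muscle genes summed to 5449 TPM, beside 721 to 1132 TPM in the other triploid abdomens and 673 to 799 TPM in the diploid ones. Without C69 the count of higher members was 10 and the median 0.65. Without C79 the count of higher members was 22. The count of lower members was 24 without C68, 0 without C69, C67 or C77, 1 without C66 or C79 and 2 without C76. The 43 genes with SP symbols (serine proteases), counted here as a gut list, summed to 15283 and 10585 TPM in C66 and C67, beside 1385 and 2343 TPM in C69 and C68 and 907 to 1166 TPM in the diploid abdomens. The part of these in the members' changes was not tested.

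The ovary genes oskar and nanos summed to 637 to 1472 TPM in F14 triploid abdomens, against 1407 to 1712 TPM in diploid ones.

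At F2 the muscle genes summed to 488 to 981 TPM in triploid abdomens, against 591 to 1491 TPM in diploid ones, and the count of 18 ranged from 9 (without C28 or C36) to 27 (without C30). C30 was the lowest diploid abdomen for 57 members, and C36 the lowest triploid one for 36.

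LOC107981339 was called in both directions. In F2 abdomens it stood at 16.3, 16.0, 35.6, 39.8 and 36.7 TPM in triploids, against 200.3, 331, 255 and 27.9 TPM in diploids (log2 change −2.78, SE 0.76, edgeR adjusted p = 0.0171). In F14 abdomens it stood at 154, 83.1, 76.5 and 2024 TPM in triploids, against 33.7, 30.04, 65.6 and 30.9 TPM in diploids (log2 change 4.33, SE 0.89, edgeR adjusted p = 0.00103). At F2 the diploid library C30 lay among the triploids, and at F14 every triploid library exceeded every diploid one. Without C69 the F14 log2 change was 1.58 (adjusted p = 0.0709), and the F2 call ends without C28 (adjusted p = 0.0679), without C36 (0.0508) or without C37 (0.0505). The changes of the 2 generations differed by 7.11 (SE 1.17, edgeR adjusted p = 4.35e-05).

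LOC100119921 rose in F14 triploid abdomens, to 31.5, 26.9, 21.4 and 305 TPM, against 12.7, 9.46, 20.2 and 13.8 TPM in diploid ones (log2 change 3.23, SE 0.70, edgeR adjusted p = 0.0016). Without C69 its log2 change was 1.08 (adjusted p = 0.125). LOC100119646 rose to 1.71, 0.58, 0.45 and 2.23 TPM, against 0.09, 0.29, 0.19 and 0.14 TPM (log2 change 3.13, SE 0.62, edgeR adjusted p = 0.000834). It kept its call without C69 and under every other alternative run. At F2 it fell (log2 change −2.13, SE 0.57, adjusted p = 0.0153), to 0.04 to 0.32 TPM in triploid abdomens, against 0.17 to 0.75 TPM in diploid ones.

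LOC100677857 and LOC100124057 ran the other way, higher in F2 triploid abdomens and lower in F14 ones. LOC100677857 stood at 11.7, 17.2, 12.1, 15.7 and 12.4 TPM in F2 triploid abdomens, against 5.87, 6.66, 6.14 and 8.46 TPM in diploid ones (log2 change 1.07, SE 0.34, edgeR adjusted p = 0.0367). At F14 it stood at 8.48, 5.92, 13.3 and 3.73 TPM in triploid abdomens, against 19.99, 25.6, 14.8 and 21.5 TPM in diploid ones (log2 change −1.17, SE 0.36, edgeR adjusted p = 0.0161). The groups did not overlap at either generation. LOC100124057 had 29.8 to 46.2 TPM in F2 triploid abdomens, against 16.4 to 28.3 TPM in diploid ones (log2 change 0.88, SE 0.27, edgeR adjusted p = 0.0329), and its F14 log2 change was −0.87 (adjusted p = 0.0236). Each F2 call ended without C27, C28, C29, C36, C37 or C39. The F14 call of LOC100677857 ended without C67, C69 or C77.

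LOC100115264, which fell in triploid heads of both generations, was low in abdomens and not of 1 direction there. Triploid abdomens of F2 had 0.31, 0.71, 1.17, 0.72 and 1.04 TPM, against 3.86, 3.85, 2.62 and 0.60 TPM in diploid ones (log2 change −1.77, SE 0.50, edgeR adjusted p = 0.0199). Triploid abdomens of F14 had 4.11, 2.36, 1.07 and 10.3 TPM, against 1.19, 1.19, 1.78 and 1.14 TPM in diploid ones (log2 change 2.13, SE 0.54, edgeR adjusted p = 0.00472). Without C69 the F14 log2 change was 1.13 (adjusted p = 0.112), and the F2 call ended without C27 (adjusted p = 0.073), without C28 (0.0812) or without C36 (0.0634). With 3 calls it is the member called lower in the most of the 6 ploidy contrasts outside male heads.

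In the higher direction the most calls were 2, for LOC100680350 and LOC100115155. The second call of LOC100115155, after F2 triploid heads, was in F14 triploid abdomens (log2 change 2.23, SE 0.67, edgeR adjusted p = 0.0147). That call held in 10 alternatives and ended in 4, and the groups overlapped, with triploid C68 at 4.62 TPM and diploid C78 at 6.99 TPM. In F2 triploid abdomens LOC100115155 was called lower (log2 change −3.21, SE 0.64, edgeR adjusted p = 0.00319). LOC100118989 and LOC100124120, with LOC103317947 and LOC107981339, are among the 7 with 2 calls on the lower side. LOC100118989 fell in F2 triploid heads to 0.85, 2.52, 0.21, 0.63 and 2.40 TPM, against 10.96, 8.62, 8.63 and 3.83 TPM in diploid heads (log2 change −2.72, SE 0.59, edgeR adjusted p = 0.00175), and in F2 triploid abdomens it was at 0 to 0.06 TPM, against 0.05 to 1.49 TPM in diploid ones. LOC100124120 fell in F2 triploid heads to 29.5, 39.5, 29.7, 41.9 and 39.1 TPM, against 108, 91.98, 104.5 and 73.2 TPM in diploid heads (log2 change −1.49, SE 0.39, edgeR adjusted p = 0.00731). Its other lower call, in F2 triploid abdomens (log2 change −2.15, SE 0.68, edgeR adjusted p = 0.0366), held in 6 alternatives and ended in 9. In F14 triploid abdomens LOC100118989 and LOC100124120 were called higher. Their log2 changes there were 4.20 (SE 1.05, edgeR adjusted p = 0.00432) and 2.80 (SE 0.75, edgeR adjusted p = 0.00696). The call of LOC100118989 ended in 2 alternatives and that of LOC100124120 in 3. C69 was the highest of those triploid abdomens for both genes, at 5.59 and 50.45 TPM.

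**Figure D5:**
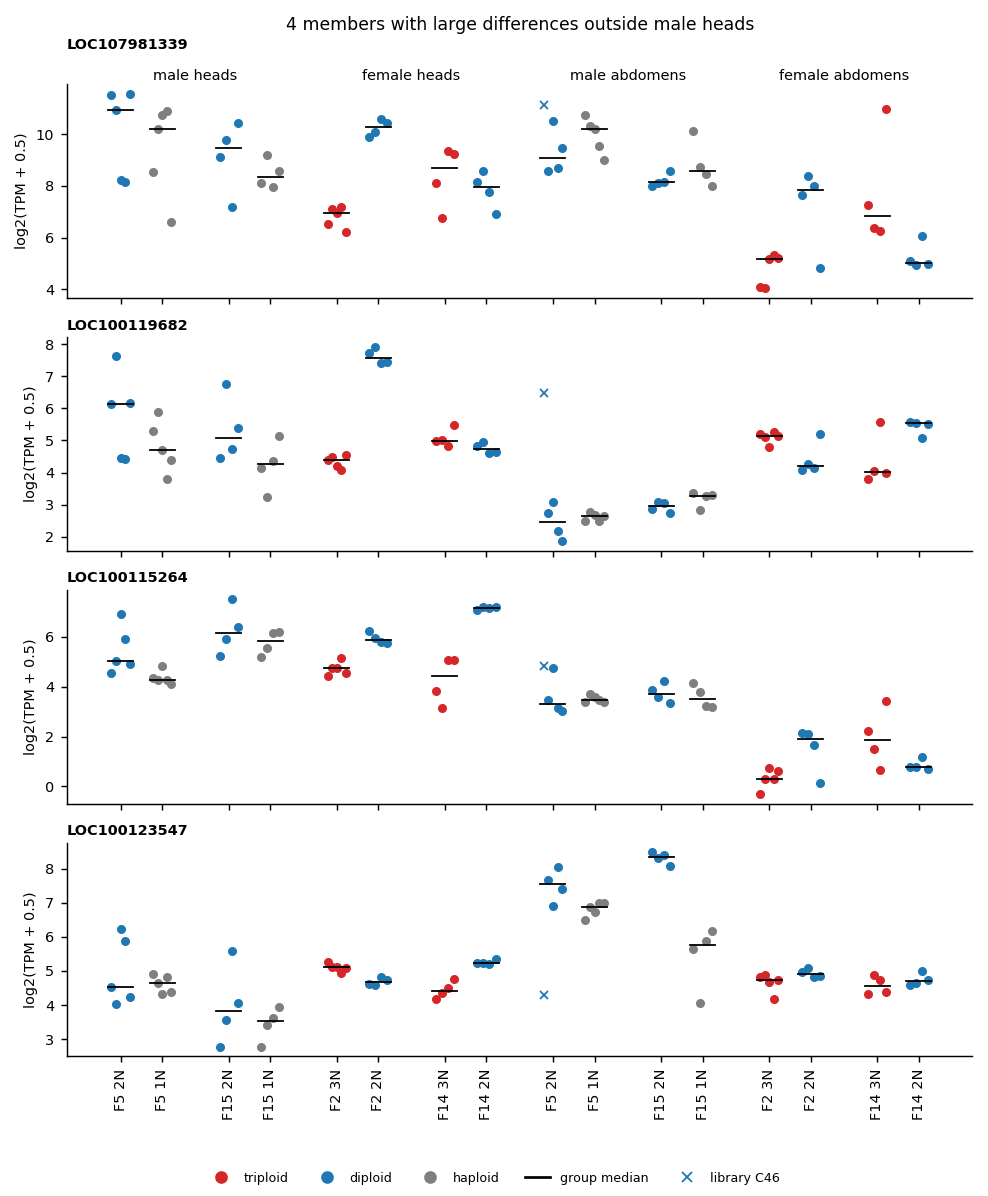
log2(TPM + 0.5) of LOC107981339, LOC100119682, LOC100115264 and LOC100123547 in each library, by tissue, sex, generation and ploidy, with a bar at the group median; C46 is drawn as a cross and left out of its median. Triploid heads of F2 lie below diploid heads of F2 for the first 3 genes, triploid heads of F14 lie below diploid ones for LOC100115264, and diploid male abdomens of F15 lie above haploid ones for LOC100123547.

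Diploid females, whose libraries did not enter the rule, were compared between heads and abdomens. In their heads 77 of 98 members were higher than in their abdomens and 11 lower, where 46.9% of all genes were called higher and 39.1% lower. The median log2 difference was 3.55 over the members and 0.29 over all genes. The members had to reach 5 TPM over male heads, and so did not have to be present in abdomens. All genes tested passed no such filter, so these counts do not measure a tissue preference apart from it. The candidates did pass it. In diploid female heads the members' median TPM was 0.62 to 1.39 times that of the candidates, against 0.069 to 0.151 times in diploid female abdomens.

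LOC103317947 had the largest difference, at 129, 128, 103 and 115 TPM in F2 diploid heads and 44, 39.95, 40 and 34.3 TPM in F14 diploid heads, against at most 0.03 TPM in the 8 diploid abdomens (log2 difference 12.4, SE 0.36, edgeR adjusted p = 7.76e-21). LOC100124125 stood at 24.2 to 47.01 TPM in F2 and 54.2 to 62.1 TPM in F14 diploid heads, against 0.01 to 0.12 TPM in diploid abdomens (log2 difference 9.48, SE 0.39, edgeR adjusted p = 1.7e-19). LOC100122776 stood at 21.6 to 123 TPM in F2 and 59.1 to 82.9 TPM in F14 diploid heads, against 0 to 0.26 TPM in diploid abdomens (log2 difference 9.23, SE 0.71, edgeR adjusted p = 3.96e-13). In these 3 genes heads and abdomens did not overlap, and a lack of overlap was a condition of naming them.

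The 3 members of largest change among those higher in female abdomens overlapped nowhere with the heads, again a condition of naming them. LOC100120723 stood at 4.75 to 7.24 TPM in F2 and 9.17 to 12.8 TPM in F14 diploid heads, against 41.3 to 65.0 and 75.5 to 90.1 TPM in the diploid abdomens (log2 difference −3.00, SE 0.20, edgeR adjusted p = 8.06e-15). LOC100122310 had a log2 difference of −2.65 (SE 0.29, edgeR adjusted p = 9.81e-10) and LOC100119794 of −2.51 (SE 0.43, adjusted p = 4.41e-06). The ovary genes oskar and nanos summed to 1135 to 1712 TPM in the diploid female abdomens, beside 5.61 to 14.8 TPM in the diploid female heads.

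Abdomens of diploid males and diploid females were compared because both carry 2 sets. The sexes were collected at different generations, so sex and generation cannot be told apart here. In diploid male abdomens 62 of 99 members were higher and 24 lower, where 49% of all genes were called higher and 36.2% lower, and the median log2 difference was 2.25 over the members and 0.54 over all genes. The comparison shares its diploid female abdomens with that of the tissues. On the log2 TPM scale 53 were higher and 32 lower, with a median of 1.13 over the members and −0.16 over all genes. The shares of all genes called on that scale are not given here.

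LOC116417235 stood at 28.6, 18.6, 2.26 and 83.6 TPM in F5 and 34.6, 18.4, 10.4 and 24.7 TPM in F15 diploid male abdomens, against 0.11 to 1.73 TPM in diploid female abdomens (log2 difference 5.80, SE 0.70, edgeR adjusted p = 1.2e-08). LOC100114489 stood at 1.49 to 9.78 TPM in F5 and 5.97 to 8.79 TPM in F15 diploid male abdomens, against 0.06 to 0.46 TPM in diploid female abdomens (log2 difference 5.07, SE 0.50, edgeR adjusted p = 1.88e-10). LOC100115155 stood at 358, 470, 179 and 26.7 TPM in F5 and 168, 116, 202 and 127 TPM in F15 diploid male abdomens, against 2.13 to 32.1 TPM in F2 and 2.82 to 6.99 TPM in F14 diploid female abdomens. Its log2 difference was 4.95 (SE 0.53, edgeR adjusted p = 9.87e-10), and 1 F5 male library lay within the range of the F2 females.

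The 3 members with the largest differences on the lower side are those that were higher in female abdomens than in heads. LOC100119794 was at 0 to 1.29 TPM in the 8 diploid male abdomens, against 84.6 to 252 TPM in F2 and 168 to 233 TPM in F14 diploid female abdomens (log2 difference −7.43, SE 0.77, edgeR adjusted p = 4.91e-10). LOC100122310 was at 1.52 to 6.16 TPM, against 78.5 to 184 TPM (log2 difference −4.23, SE 0.26, edgeR adjusted p = 3.83e-15), and LOC100120723 at 2.42 to 5.80 TPM, against 41.3 to 90.1 TPM (log2 difference −3.39, SE 0.18, edgeR adjusted p = 3.26e-16). No diploid male abdomen reached a diploid female one for any of the 3, which were named for a lack of overlap.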

How the data were processed

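Poly-A RNA of heads and abdomens from 1 Nasonia vitripennis line was sequenced in 70 libraries. RNA was extracted with a Zymo kit and libraries were made with NEBNext reagents, per the labels' protocols. Reads were processed with STAR 2.7.11a and RSEM 1.3.1, per the submitters' processing notes on a genome build not given in the sources used here. The authors deposited a table of expected counts for 14621 genes, of which 18.2% of values were not whole and were rounded here. The authors also deposited TPM for 14613 genes, all of whose symbols were found in the RefSeq gene table (Nvit_psr_1.1), used for names only. That table gives no gene products, so no member was grouped by product, and sequences are not used here.

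The members and gene lists were chosen with earlier results of these data known. Libraries held 12163580 to 25061605 counts, which sets the precision of low genes, and no 2 libraries of a group agreed within counting noise (lowest chi-square per gene 4.91). Libraries were grouped by their titles. Counts were filtered with filterByExpr, scaled by TMM and tested with edgeR 4.0.16 quasi-likelihood F tests in R 4.3.3, with Benjamini-Hochberg adjustment over all genes of a contrast and a threshold of 0.05. The head fit held 35 libraries and 11785 genes (99 members kept), the abdomen fit 34 libraries without C46 and 12291 genes (99), and the fit of all female libraries, used for the tissue contrast, 34 libraries and 12114 genes (98). Log2 changes come from these fits and per-library values are TPM. The code was tested on simulated data. Python 3.11.15 with pandas 2.3.3 handled the tables.

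Named members are the 12 of highest ratio, up to 3 per direction in a contrast by size of change among called members with at least 5 CPM in 1 group and no overlap, those called in most ploidy contrasts, and those at the edge of the rule. For members named per contrast, a lack of overlap was thus a condition and is not a result. Members named to complete a small count were chosen after their values were seen. Alternatives were RLE size factors, no filter, DESeq2 1.42.0, limma 3.58.1 on log2(TPM + 0.5) with a mean TPM of at least 0.5, the compared groups alone, each library left out, C46 kept, and other settings of the rule. Generation and collection cannot be told apart, and no collection or sequencing date was used here. The labels do not say which head and abdomen came from the same animals.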

Additional observations from a re-analysis of the deposited data

Results flagged for a closer look

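Dixon's test looked for a library far from the rest of its group in 78 groups of values, and 7 were found. Chance gives about 1 in 20 for independent groups, but groups of different genes share libraries here. Of the 7 found, 4 were the F14 triploid female abdomen C69: LOC107981339 at 2024 TPM, LOC100119921 at 304.6 TPM, LOC100124120 at 50.4 TPM and LOC100118989 at 5.59 TPM. The F14 diploid female abdomen C78 stood apart for LOC107981339 at 65.6 TPM and for LOC100115264 at 1.78 TPM. The F2 triploid female abdomen C39 stood apart for LOC100124120 at 4.85 TPM.

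For these named members the ploidy change differed between generations by an edgeR interaction test. In female abdomens the log2 change at F14 minus that at F2 was 9.05 for LOC100118989, 7.11 for LOC107981339, 6.24 for LOC116417235, 5.44 for LOC100115155, 5.26 for LOC100119646, 4.95 for LOC100124120, 4.87 for LOC100119921 and 4.79 for LOC100678896. It was 4.62 for LOC100120906, 4.59 for LOC100120231, 4.08 for LOC100114489, 3.89 for LOC100115264, 3.24 for LOC100124125, 2.77 for LOC100123371 and 0.90 for LOC100680350. It was below 0 for LOC100120723 (−1.08), LOC100119682 (−1.34), LOC100124057 (−1.75) and LOC100677857 (−2.24). Of all genes tested in female abdomens, 28.1% were called higher and 11.6% lower in this difference. Some of the large values rest on levels near 0. In F2 triploid abdomens LOC116417235 and LOC100118989 were at 0 to 0.06 TPM and LOC100120231 at 0 to 0.05 TPM. LOC116417235 was not called in F14 abdomens (edgeR adjusted p = 0.264). In female heads it was 4.11 for LOC107981339 and 3.65 for LOC100119682. In male abdomens the change at F15 minus that at F5 was 1.93 for LOC100123547 and −1.60 for LOC100677857. Library C46, labelled as an F5 diploid male abdomen and left out of the tests, had a median of 15.6 TPM over the members.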

How the results depend on the processing

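Of the alternatives run on the named members, 647 left the call as it was, 56 ended it and 0 reversed its direction. Counts of called members moved by more than 1.5 times in 39 of 128 alternatives other than a left-out library and in 61 of 268 left-out libraries. Counts are given as higher or lower in the first group named, and the cause of a change was not tested. For alternatives and left-out libraries the shares of all genes called are not given. A moved count is therefore not read as a trait of the members. With DESeq2, F5 male abdomens had 2 higher, F2 triploid heads 41 lower and F14 triploid abdomens 12 lower, and the generation difference had 2 lower in male abdomens and 5 higher and 2 lower in female heads. With limma on log2 TPM, F5 male abdomens had 1 lower, F15 male abdomens 8 lower, F2 heads 2 higher and 14 lower, F2 abdomens 0 higher and 3 lower, and F14 abdomens 13 higher and 22 lower. In the same test the generation difference had 1 lower in female heads and 21 higher and 23 lower in female abdomens. With the compared groups alone, F5 male abdomens had 0 higher, F15 male abdomens 6 higher, F2 heads 4 higher, F14 heads 3 higher and 10 lower, F2 abdomens 6 higher, and F14 abdomens 4 higher and 0 lower. There the generation difference had 0 higher and 0 lower in male abdomens and 13 higher and 5 lower in female heads. Without the filter F2 abdomens had 1 higher and F14 abdomens 9 lower, and the generation difference had 0 lower in male abdomens and 1 lower in female heads. With RLE factors F14 abdomens had 9 lower and the generation difference in female heads 1 lower. With C46 kept, F2 abdomens had 1 higher and the generation difference in male abdomens 0 lower. Without C33 and C34, a choice made after seeing the data, F2 heads had 11 lower and the generation difference in female heads 1 higher. Leaving out 1 library at a time gave 1 to 2 higher and 0 lower in F5 male abdomens, 2 higher and 2 to 7 lower in F15 male abdomens, 1 higher and 11 to 41 lower in F2 heads, and 0 higher and 4 to 6 lower in F14 heads. It gave 0 to 7 higher and 9 to 27 lower in F2 abdomens, 10 to 46 higher and 0 to 24 lower in F14 abdomens, 75 to 78 higher and 9 to 12 lower in diploid female heads against abdomens, and 61 to 63 higher and 23 to 26 lower in diploid male against female abdomens. For the generation difference it gave 1 higher and 0 to 7 lower in male abdomens, 1 to 2 higher and 0 to 1 lower in female heads, and 36 to 51 higher and 6 to 26 lower in female abdomens. The rule took 95 of the 100 members again with a pseudocount of 1, 76 with a mean TPM of at least 1, 89 with at least 10, 28 with medians and 74 with CPM. The median of all genes moved by over 0.1 between TMM and TPM: 0.17 and −0.17 in F14 abdomens, 0.54 and −0.16 between the sexes, −0.04 and −0.21 in F5 male abdomens, 0.03 and 0.13 in F2 heads, and 0.10 and 0.22 in F14 heads. No paired analysis was possible because every library has a code of its own and the groups share no replicate numbers.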
